A study of Mus musculus with 4 samples.

Results

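The histone cluster genes are the genes that the array's own annotation names Hist1h, Hist2h, Hist3h and Hist4h, the replication-dependent histone genes that lie together in clusters. The array held 56 of them. The analysis kept the 52 whose signal stood well above background on 2 or more of the 4 arrays: 6 of 6 H1 genes, 15 of 18 H2A genes, 13 of 14 H2B genes, 9 of 9 H3 genes and 9 of 9 H4 genes. Hist1h2ad, Hist1h2al, Hist2h2aa1 and Hist3h2bb-ps did not pass. Detection on all 4 arrays held for 50 of the 52, with Hist1h1t detected on 3 and Hist2h2ab on 2. They stand among 23520 genes and transcripts that passed the same filter, called all features here.

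The study measured RNA from untreated 4T1 cells, a mouse mammary carcinoma line of BALB/C origin, implanted in BALB/C mice. Tumour cells were sorted with the ALDEFLUOR assay, which reports aldehyde dehydrogenase (ALDH) enzyme activity, into cells of low activity (labelled negative) and of high activity (labelled positive), at zeitgeber time ZT0 or ZT12, that is, counted from lights-on. The 4 groups were ZT0 ALDH-low, ZT0 ALDH-high, ZT12 ALDH-low and ZT12 ALDH-high, with 1 one-colour Agilent array each, so no difference has a replicate check. How many animals stand behind each array was not stated. A level is the log2 signal of a gene's brightest probe minus the array's 75th percentile. It can be followed across arrays but not set against the level of another probe. A gene counted as higher or lower where it differed by at least 2-fold, that is 1 log2 unit. The repeated spots of a probe within an array had a median SD of 0.037 to 0.045 log2, which covers the spot error only.

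Core histones H2A, H2B, H3 and H4 form the protein core around which DNA winds, and linker histone H1 binds where DNA enters and leaves that core. Replication-dependent histone genes are transcribed mainly in S phase, and their messages normally end in a conserved stem-loop in place of a poly(A) tail. Some of these genes also give longer, polyadenylated transcripts. The labelling kit used here primes from poly(A), which bears on which histone transcripts an array of this kind reads.

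The probe sequences are shown first because they decide which transcript and which gene a value speaks for. In the H2A class, probes of different genes share long stretches of coding sequence. The probes of 4 H2A genes below each shared 41 to 45 of 60 bases, in capitals, with another member's probe, so these values cannot be assigned to 1 gene each.

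Hist1h2aa: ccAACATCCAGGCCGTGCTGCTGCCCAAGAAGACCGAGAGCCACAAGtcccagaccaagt

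Hist2h2ac: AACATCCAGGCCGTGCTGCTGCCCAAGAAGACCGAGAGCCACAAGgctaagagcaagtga

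Hist1h2ah: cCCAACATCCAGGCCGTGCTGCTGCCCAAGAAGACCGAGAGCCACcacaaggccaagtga

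Hist1h2af: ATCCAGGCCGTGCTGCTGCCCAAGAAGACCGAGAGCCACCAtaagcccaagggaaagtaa

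A run of at least 20 bases was shared with another member's probe by 10 of 15 H2A probes, 2 of 13 H2B probes, 1 of 9 H3 probes, 2 of 9 H4 probes and 0 of 6 H1 probes. The array's annotation listed RefSeq transcripts of another gene as well for 16 of the 52 probes (6 H2A, 4 H2B, 2 H3 and 4 H4), and no RefSeq transcript for 7: Hist1h1c, Hist1h2ac, Hist1h2ae, Hist1h2bg, Hist2h2bb, Hist2h3c1 and Hist2h3c2. For 3 probes, those of Hist1h2ag, Hist1h2an and Hist1h2bq, the files' strand was not that of the RefSeq gene, where 44 were on the same strand. A gene name below is therefore the array's name for a probe. The files also place the Hist1h2an, Hist1h2ao and Hist1h2ai probes over the same stretch of chromosome 13 (mm9, from 21902669 to 21902779 in all). H2A values are therefore read below as a class.

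A different set of probes ends in the message's 3′ terminus. A run of 16 bases, AAAGGCTCTTTTCAGA, part of the histone 3′ stem-loop, was whole in 6 of the 68 member probes and in 7 of all 56605 non-control probes. A further 3 member probes began or ended inside it. The 30 bases around the run, with the run in capitals, show that these probes come from genes of the H2A, H2B and H3 classes.

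Hist1h2ai: cattacgaatcaccAAAGGCTCTTTTCAGA

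Hist1h2bf: tcctaacccAAAGGCTCTTTTCAGAgccac

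Hist2h2bb, probe not in use: ctttacccaAAAGGCTCTTTTCAGAgccac

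Hist3h2ba: agcgcccccaacccAAAGGCTCTTTTCAGA

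Hist1h3a: gaattaaccAAAGGCTCTTTTCAGAgccac

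Hist1h3i: ttaataacaAAAGGCTCTTTTCAGAgcccc

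Before the values, the arrays themselves need a word. Arrays that shared a position on the slide were the most alike: the median absolute difference over all features was 0.26 at position 1_1, which held ZT0 ALDH-low with ZT12 ALDH-high, and 0.46 at position 1_2, which held ZT12 ALDH-low with ZT0 ALDH-high, against 1.0 to 1.07 for the other 4 pairs of arrays. Over the 52 histone genes these values were 0.18 and 0.52, against 0.37 to 0.71. For these genes the position 1_2 arrays were thus less alike than some pairs that shared no position. Within a position both the ALDH arm and the time differ, so the part of position in any result cannot be told apart from the ALDH by time pattern. The same likeness would arise if the ALDH labels of the 2 arrays of 1 time had been exchanged. That was not tested, and it would turn the sign of every ALDH difference at that time. Each time had a slide of its own, so slide and time cannot be told apart. The arrays had 55.8 to 60.6% of 59305 spots well above background, 75th percentiles of 156 to 459 intensity units and no saturated spot. The slope of the spike-in probes was 0.79 to 0.96, lowest on the ZT12 ALDH-high array and next lowest on the ZT0 ALDH-low array. The scanner software marked these 2 arrays, both at position 1_1, for evaluation and the other 2 as in range. The part of array quality in the differences was not tested.

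The first question is whether histone genes differed between ALDH-high and ALDH-low cells at ZT0. Of the 52 genes, 14 were higher in ALDH-high cells by 2-fold or more and 1 was lower, against 20.5% and 31.5% of all features. The classes did not move alike. H2B genes were highest, with a median difference of 1.54 log2 and 8 of 13 higher and 1 lower. H3 genes had a median of 0.47, with 4 of 9 higher and 0 lower. The medians of the other classes were -0.11 in H1, -0.01 in H2A and -0.01 in H4, with 1 of 6, 0 of 15 and 1 of 9 genes higher and 0 lower in each. The median of all features was -0.32. On the same arrays neutrophil markers had a median ALDH difference of 2.83 and epithelial markers one of -3.41. Of 12 neutrophil markers 7 were higher and 1 lower, and of 12 epithelial markers 1 was higher and 11 lower. The other cell type lists are given further below. In sorted bulk samples, fewer cells of a type and less RNA per cell cannot be told apart.

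At ZT12 the same contrast gave 7 histone genes that were higher in ALDH-high cells and 11 that were lower, against 32.2% and 17.9% of all features. H2B genes now had a median of -0.83, with 5 of 13 lower and 2 higher, and H3 genes had a median of -0.52, with 3 of 9 lower and 2 higher. H1, H2A and H4 had medians of 0.63, 0.42 and 0.30, beside 0.30 for all features. In H1, 1 gene was higher and 1 lower; in H2A, 1 was higher and 0 lower; in H4, 1 was higher and 2 lower. These splits depend on the scaling: with each array scaled to its median in place of its 75th percentile, 17 genes were higher and 0 lower at ZT0, and 0 were higher and 21 lower at ZT12. That scaling also moved the median of all features, from -0.32 to 0.17 at ZT0 and from 0.30 to -0.57 at ZT12. The shares of all features past 2-fold under it were not counted, so these splits do not set histone genes apart.

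Relative to the median of all features, the H2B and H3 medians kept their side under the main setting and the 6 other settings that moved them. Median scaling and keeping outlier spots moved no class median against all features. H2B lay 0.70 to 1.90 log2 above all features at ZT0 and by -1.69 to -0.46 log2 from them at ZT12. For H3 these ranges were 0.52 to 1.16 and -1.52 to -0.53. H2A lay 0.23 to 0.56 above all features at ZT0, but its ZT12 range, -0.57 to 0.23, crossed 0. H1 and H4 changed side with the setting at both times.

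**Figure D1:**
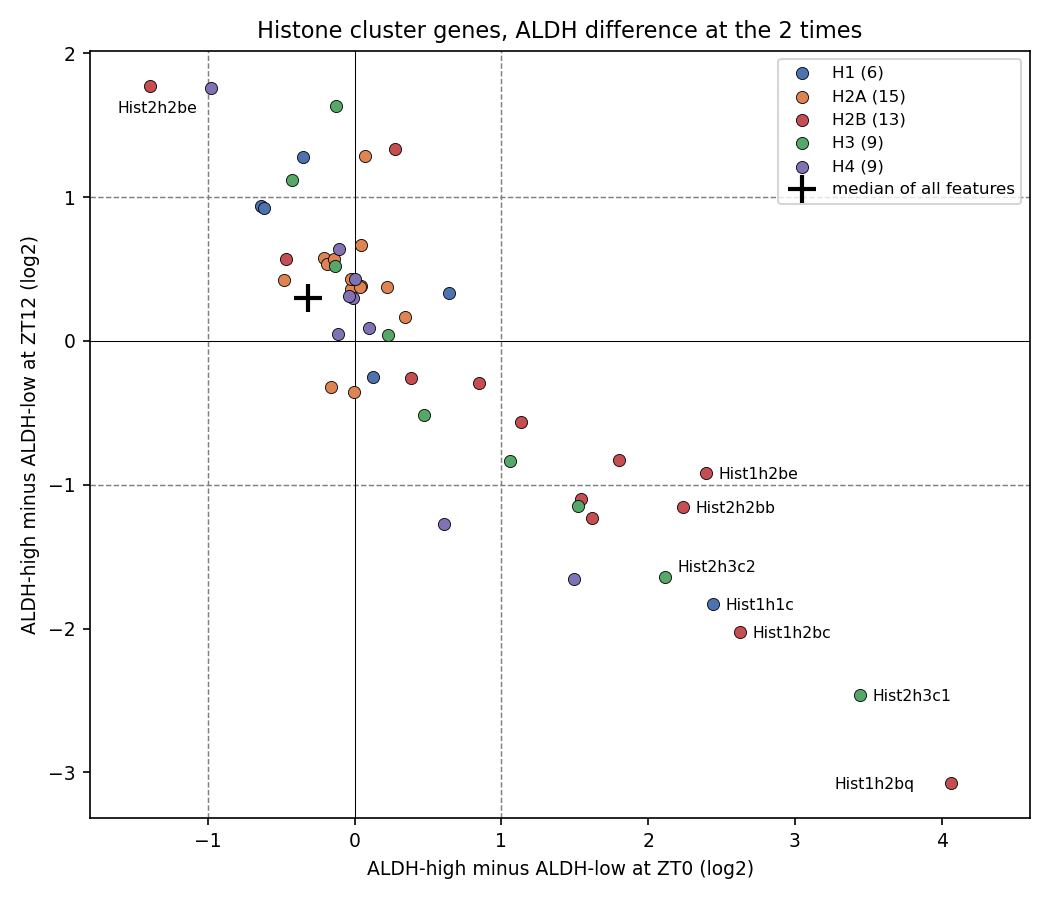
Each point is 1 of the 52 histone cluster genes, coloured by class, with its ALDH-high minus ALDH-low difference at ZT0 on the x axis and at ZT12 on the y axis (log2). Dashed lines mark 2-fold and the cross marks the median of all features. The lower right corner holds 5 H2B and 3 H3 genes, as far as Hist1h2bq at 4.06 and -3.07, while Hist2h2be lies at the upper left. Measured differences of 14 of 15 H2A genes lie within 2-fold on both axes, Hist2h2ab near background among them.

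Read over both times, 10 of the 52 genes passed 2-fold upward in ALDH-high cells at ZT0 and downward at ZT12, a pattern that 15.0% of all features showed. They were 5 H2B genes (Hist1h2bb, Hist1h2bc, Hist1h2bm, Hist1h2bq and Hist2h2bb), 3 H3 genes (Hist1h3d, Hist2h3c1 and Hist2h3c2), the H1 gene Hist1h1c and the H4 gene Hist1h4i. Of these 10 probes, 4 list another gene's transcripts (Hist1h2bb, Hist1h2bm, Hist1h2bq and Hist1h3d), 4 list no RefSeq transcript (Hist1h1c, Hist2h2bb, Hist2h3c1 and Hist2h3c2) and 2 list their own gene alone. With normexp background correction and quantile scaling, the value for Hist2h2bb reversed at both times, to -0.24 and 0.31. The brightest probe was chosen anew there, and whether it was the same probe was not checked. The opposite pattern, lower at ZT0 and higher at ZT12, was met by 1 histone gene, Hist2h2be, against 20.4% of all features. Another 30 histone genes stayed within 2-fold at both times, against 33.8% of all features. They include Hist2h2ab at both times and Hist1h1t at ZT12, which were not well above background on one of the arrays compared. By class these were 14 of 15 H2A, 6 of 9 H4, 4 of 6 H1, 3 of 9 H3 and 3 of 13 H2B genes. The remaining 11 passed 2-fold at 1 of the times only. As many H2A probes share sequence, the 14 H2A genes within 2-fold are not 14 separate readings.

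In a limma fit with terms for ALDH and time over all features, with 1 residual degree of freedom, 0 features were called for ALDH (7 at an unadjusted p under 0.05) and 0 for time (2 at an unadjusted p under 0.05). The percentage called was 0.0% for both terms. On simulated arrays, with noise set from the residual of this fit, the ALDH term recovered 0.0% of 200 planted changes of 2 log2. It recovered 7.0% of them at 4 log2 and 97.0% at 8 log2, so the 0 calls cannot speak for smaller changes. For every histone gene the mean ALDH difference over both times had a standard error of 1.54 log2, larger than each of those means, which ran from -0.33 in Hist1h4m to 0.80 in Hist1h2bp. The only residual of this fit is the ALDH by time difference, and limma pooled its variance over all features. The standard error is therefore the same for each gene and does not measure the spread between samples.

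The same 4 values per gene can be read across time, that is, also between slides. Each time difference shares an array with each ALDH difference, so these counts are not independent of those above. In ALDH-low cells, 14 histone genes were higher at ZT12 than at ZT0 and 5 were lower, against 17.5% and 32.7% of all features. In ALDH-high cells, 3 were higher at ZT12 and 15 were lower, against 32.5% and 20.8% of all features. With median scaling the splits were 18 higher and 0 lower in ALDH-low cells, and 0 higher and 17 lower in ALDH-high cells. The median of all features moved with it, from -0.42 to 0.41 in ALDH-low cells and from 0.33 to -0.21 in ALDH-high cells. Shares of all features under median scaling were not counted. H2B supplied 8 of the 14 genes higher in ALDH-low cells and 8 of the 15 lower in ALDH-high cells, with medians of 1.17 and -1.44. H3 medians were 0.68 and -0.49. H1, H2A and H4 had medians of -0.94, -0.52 and -0.52 in ALDH-low cells and 0.06, -0.09 and -0.23 in ALDH-high cells, beside -0.42 and 0.33 for all features.

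**Figure D2:**
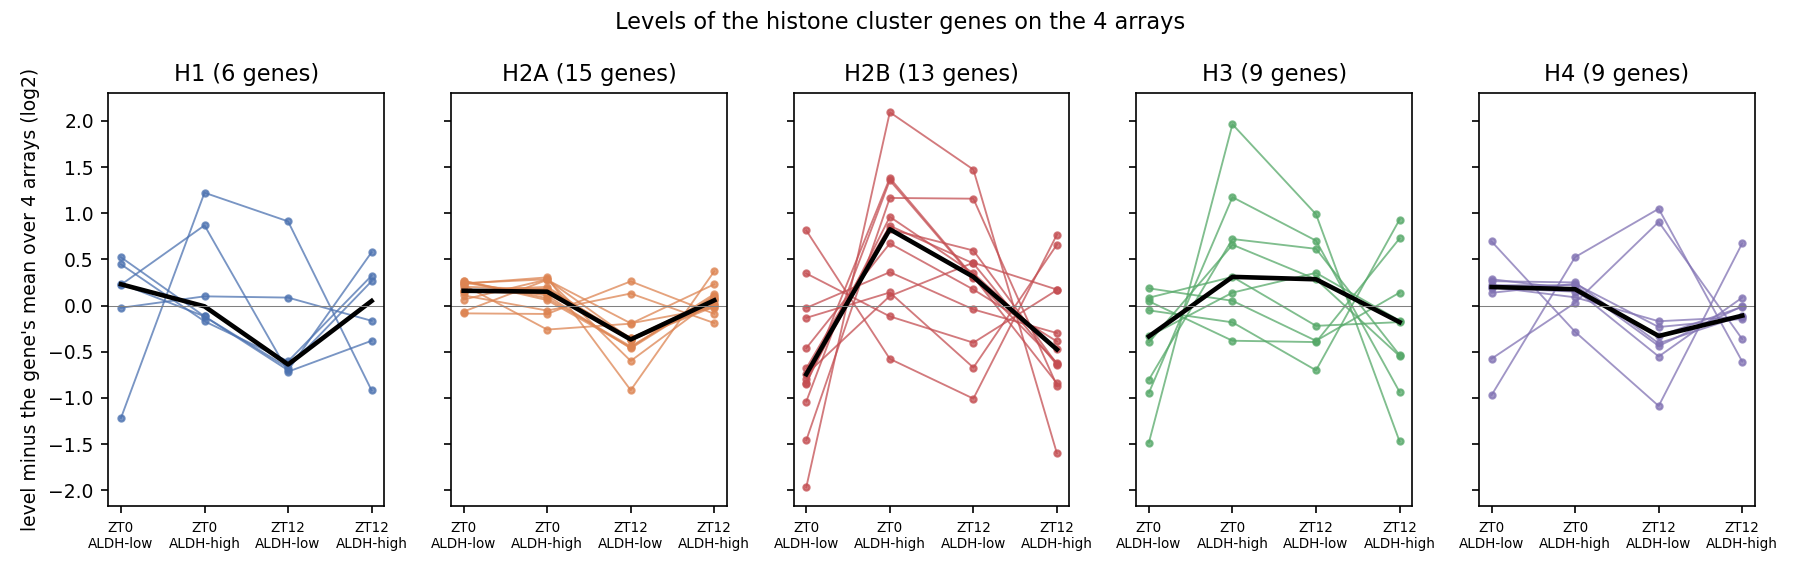
Each thin line is 1 gene, with its level on each of the 4 arrays (x axis) minus its mean over those arrays (y axis, log2), in a panel per histone class. The black line is the class median. The H2B and H3 median lines are high on the ZT0 ALDH-high and ZT12 ALDH-low arrays, with genes such as Hist2h2be and Hist1h3i running the other way. In the main setting, drawn here, the H2A median line is level at ZT0 and dips on the ZT12 ALDH-low array, where Hist1h2ae is at its highest.

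Within an array position the classes drew together. Between the position 1_1 arrays (ZT12 ALDH-high minus ZT0 ALDH-low), 0 of the 52 histone genes differed by 2-fold, where 3.72% of all features were higher and 3.06% lower, and the class medians ran from -0.20 in H4 to 0.16 in H2B. Between the position 1_2 arrays (ZT0 ALDH-high minus ZT12 ALDH-low), 4 genes were higher and 0 lower, where 14.4% of all features were higher and 6.45% lower, and the class medians ran from 0.43 in H2B and H3 to 0.52 in H2A.

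H2B, which pairs with H2A in the core particle, held the largest differences of all classes. Hist1h2bq (current symbol H2bc23) had a level of -2.09 in ALDH-low and 1.97 in ALDH-high cells at ZT0, then 1.35 in ALDH-low and -1.72 in ALDH-high cells at ZT12. The ZT0 ALDH-high and ZT12 ALDH-low arrays were the high ones. Its difference was 16.7-fold higher in ALDH-high cells at ZT0 and 8.42-fold lower at ZT12, the largest of the 52 genes in each of those directions. The files place its probe at chr13:21929140-21929199 on the plus strand (mm9). RefSeq has the gene on the minus strand, and the probe lists transcripts of 1 other gene, so the value cannot be assigned to Hist1h2bq alone.

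Hist1h2bc (H2bc4), which had the highest mean level of the H2B probes, gave levels of 2.62, 5.24, 5.24 and 3.21 in that same order of arrays (ALDH-low then ALDH-high at ZT0, and again at ZT12), which is kept from here on. It was 6.17-fold higher in ALDH-high cells at ZT0 and 4.07-fold lower at ZT12. Hist2h2bb (H2bc18), on chromosome 3, had levels of 1.36, 3.60, 2.53 and 1.38, with the ZT0 ALDH-high array alone at the top. With normexp and quantile scaling, where the probe chosen may be another, the gene's differences were -0.24 at ZT0 and 0.31 at ZT12. The probe in use here lies beyond the RefSeq gene, as described below with the second probe. Hist1h2be (H2bc6) had levels of -1.13, 1.27, 0.21 and -0.71 and differed by 2.40 at ZT0 and -0.92 at ZT12.

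Hist2h2be (H2bc21) went the other way, with levels of 1.03, -0.37, -0.80 and 0.98, high on the arrays where Hist1h2bq was low. It was 2.62-fold lower in ALDH-high cells at ZT0 and 3.43-fold higher at ZT12. Hist1h2bp (H2bc22), with levels of -3.55, -3.28, -4.09 and -2.76, differed by 0.27 at ZT0 and 1.33 at ZT12. Hist1h2ba (H2bc1), a variant known from testis, was well above background on all 4 arrays at 2.08, 3.22, 2.72 and 2.16 and differed by 1.13 and -0.56.

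Members at the flat end of the class were Hist3h2ba (H2bu2, chromosome 11), at -2.62, -3.08, -3.37 and -2.80, and Hist1h2bf (H2bc7), at 1.31, 1.70, 1.29 and 1.04. Both probes contain the stem-loop run printed above. The remaining H2B genes, Hist1h2bb, Hist1h2bg, Hist1h2bm and Hist1h2bn, were higher in ALDH-high cells by 0.85 (Hist1h2bg) to 1.80 (Hist1h2bn) at ZT0, and their ZT12 differences ran from -1.23 (Hist1h2bm) to -0.29 (Hist1h2bg).

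H3 is the core histone whose tail carries many of the regulatory marks of chromatin. Hist2h3c1 (H3c14) had levels of -3.18, 0.27, -0.71 and -3.17, with near equal low values at position 1_1. It was 10.9-fold higher in ALDH-high cells at ZT0 and 5.50-fold lower at ZT12. Its neighbour Hist2h3c2 (H3c15) had levels of -3.33, -1.21, -1.69 and -3.32 and showed the same order of arrays.

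Hist1h3d (H3c4), the brightest H3 probe, which lists transcripts of 3 other H3 genes, had levels of 5.64, 7.16, 7.05 and 5.90 and was 2.87-fold higher at ZT0 and 2.22-fold lower at ZT12. Hist1h3f (H3c7) had levels of -0.72, 0.34, -0.04 and -0.87 and differed by 1.06 and -0.83. Hist1h3a (H3c1), whose probe contains the stem-loop run, had levels of -2.61, -2.14, -1.93 and -2.44, within 2-fold throughout. Hist1h3i (H3c11), also read at the stem-loop, had levels of -0.78, -0.91, -1.43 and 0.20. It was within 2-fold at ZT0 and 1.63 log2 higher in ALDH-high cells at ZT12.

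On chromosome 3, Hist2h3b (H3c13) had levels of 2.37, 2.60, 2.07 and 2.11, within 2-fold on all arrays, although it belongs to the same cluster as Hist2h3c1. The other H3 genes, Hist1h3c and Hist1h3g, differed by -0.13 and -0.43 at ZT0 and by 0.52 and 1.12 at ZT12.

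H2A was the flattest class. Its 15 genes differed by -0.48 to 0.34 at ZT0 and by -0.35 to 1.29 at ZT12. Because 10 of the 15 probes share a run of at least 20 bases with another member's probe, these are not 15 separate readings. Hist1h2ah (H2ac12), the brightest H2A probe, had levels of 8.26, 8.24, 7.69 and 8.05, with the ZT12 ALDH-low array the lowest in the main setting. Hist1h2aa (H2ac1), known as a testis variant, had levels of 7.84, 7.88, 7.31 and 7.69, but its probe shares 45 bases with that of Hist2h2ac (H2ac20), which had 7.70, 7.74, 7.21 and 7.58. With that overlap the signal cannot be assigned to the testis variant alone.

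Hist1h2ac (H2ac6) was the only H2A gene past 2-fold in an ALDH contrast, with levels of -0.02, 0.05, -1.18 and 0.11 and a ZT12 difference of 1.29. Hist1h2ab (H2ac4) had levels of 5.33, 5.37, 4.49 and 5.16. In both genes the ZT12 ALDH-low array was the low one in the main setting and the others were near equal. Hist1h2ae (H2ac8) had levels of -2.91, -2.91, -2.56 and -2.91, and Hist1h2ai (H2ac13) had 0.30, -0.18, -0.12 and 0.31.

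Outside chromosome 13, Hist2h2aa2 (H2ac19) had levels of 7.32, 7.66, 7.19 and 7.36. Hist3h2a (H2aw) had levels of 5.0, 5.22, 4.57 and 4.95. Hist2h2ab (H2ac21) was measured near the detection limit, well above background on the ZT0 ALDH-high and ZT12 ALDH-low arrays only, at -3.97, -4.14, -3.95 and -4.27, and no fold can be given for it. The other H2A genes, Hist1h2af, Hist1h2ag, Hist1h2ak, Hist1h2an and Hist1h2ao, lay within 0.21 of 0 at ZT0 and between 0.42 and 0.58 at ZT12.

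H4 is the least variable of the core histones in sequence. Hist1h4d (H4c4), the brightest H4 probe, had levels of 6.94, 6.83, 6.10 and 6.74. Hist2h4 (H4c14, chromosome 3) had 5.80, 5.76, 5.28 and 5.60, and Hist4h4 (H4f16, chromosome 6) had 3.50, 3.60, 3.13 and 3.22. In each of them the ZT12 ALDH-low array was the lowest in the main setting, as it was for Hist1h2ah. All features also had a median of -0.42 for ZT12 minus ZT0 in ALDH-low cells. With median scaling the H2A and H4 medians of that contrast both became 0.30, so this dip depends on the scaling.

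Against Hist1h4d, Hist2h4 and Hist4h4 stood 3 H4 genes. Hist1h4i (H4c9) had levels of 0.99, 2.48, 3.01 and 1.35 and was 2.82-fold higher in ALDH-high cells at ZT0 and 3.15-fold lower at ZT12. Hist1h4m (H4c17) had levels of -1.12, -0.51, 0.36 and -0.91 and differed by 0.61 and -1.27. Hist1h4h (H4c8) had levels of 1.26, 0.28, -0.52 and 1.24 and was 3.39-fold higher in ALDH-high cells at ZT12, after a ZT0 difference of -0.98. The other H4 genes, Hist1h4c, Hist1h4j and Hist1h4k, lay between -0.11 and 0.00 at ZT0 and between 0.05 and 0.43 at ZT12.

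Linker histone H1 was split by gene. Hist1h1c (H1f2), the subtype best known for expression outside S phase, had levels of 2.32, 4.77, 4.46 and 2.62. It was 5.43-fold higher in ALDH-high cells at ZT0 and 3.56-fold lower at ZT12. That probe lists no RefSeq transcript and lies 628 bases 3′ of another Hist1h1c probe, which ends inside the stem-loop run. The stem-loop probe differed by 1.23 and -1.21 log2. Hist1h1e (H1f4), the brightest H1 probe, was near level at 3.93, 4.06, 4.04 and 3.79.

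Hist1h1a (H1f1) had levels of -1.19, -1.55, -2.13 and -0.85, and Hist1h1b (H1f5) had 2.74, 2.10, 1.55 and 2.48. Hist1h1d (H1f3) had 1.11, 0.49, 0.06 and 0.99. These 3 genes were all lowest on the ZT12 ALDH-low array and differed by -0.64 to -0.35 at ZT0 and 0.93 to 1.28 at ZT12. The testis variant Hist1h1t (H1f6) was dim at -3.50, -2.85, -4.44 and -4.10, not well above background on the ZT12 ALDH-high array, and at least 1.47-fold lower there than on the ZT0 ALDH-high array.

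The place of the probe along its gene was examined next. All 7 probes in use that held the whole stem-loop run or part of it were within 2-fold at ZT0, from -0.48 to 0.47, and 6 of them at ZT12, from -0.52 to 1.63. Among all members 37 of 52 were within 2-fold at ZT0 and 34 at ZT12, against 48.0% and 49.9% of all features. Among the genes with 2 probes, Hist2h2bb gave the clearest contrast. The probe at its stem-loop (chr3:96074056-96074115, mm9) had levels of 2.09, 2.29, 1.84 and 1.81 and differed by 0.20 at ZT0 and -0.03 at ZT12. The probe in use lies 8638 bases further 3′ and differed by 2.24 and -1.15. RefSeq gives the gene a span of 493 bases and the probe lists no RefSeq transcript, so its value rests on the array's name for it.

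Hist1h1c showed it in size rather than direction: the probe that ends inside the stem-loop run differed by 1.23 and -1.21, and the probe 628 bases further 3′ by 2.44 and -1.83. In Hist2h2be the probe nearer the 5′ end differed by -0.25 and 0.53, and the probe 137 bases beyond it by -1.39 and 1.78. In Hist3h2ba the stem-loop probe differed by -0.47 and 0.57. The probe 100 bases beyond it was not well above background on the ZT0 ALDH-high and ZT12 ALDH-low arrays, and was at least 2.94-fold lower in ALDH-high cells at ZT0 and at least 5.53-fold higher at ZT12.

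In Hist3h2a the probe 507 bases further 3′ differed by -0.47 and -0.23, beside 0.22 and 0.37 at the probe in use. Hist1h2bb gave 1.52 and -0.74 at its 5′ probe and 1.54 and -1.10 at the probe 63 bases beyond, and the probe pairs of Hist1h4d and Hist1h4k differed from each other by under 0.2 at both times. In Hist1h1d the 5′ probe in use differed by -0.62 at ZT0, and the 3′ probe, 2275 bases further and so beyond the RefSeq span of 776 bases, was well above background on the ZT0 ALDH-high and ZT12 ALDH-low arrays only. It was at least 1.29-fold higher in ALDH-high cells at ZT0. The 5′ probe of Hist2h3c2, bright on the same pair of arrays, was at least 3.61-fold higher in ALDH-high cells at ZT0 and at least 2.03-fold lower at ZT12. The second probes of Hist1h2ai and Hist2h2ac were not well above background on any array.

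**Figure D3:**
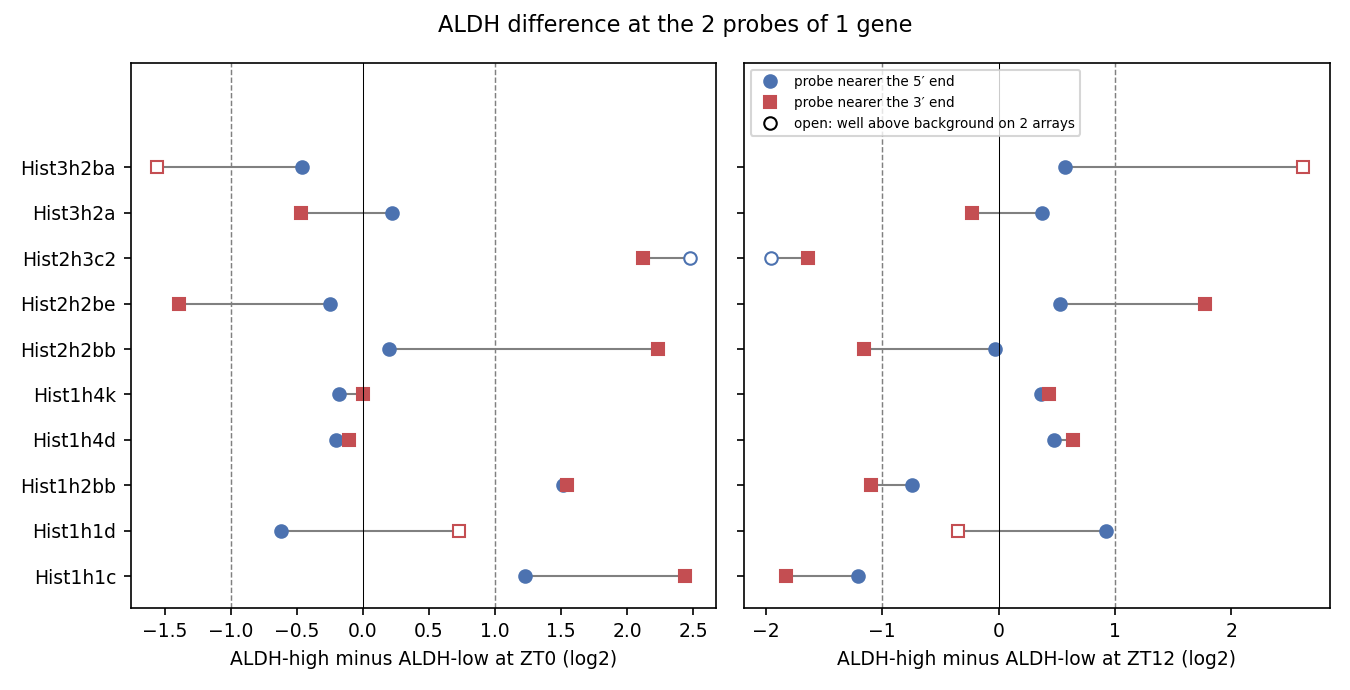
For the 10 genes with 2 probes well above background on at least 2 arrays, the ALDH-high minus ALDH-low difference (x axis, log2) is drawn at ZT0 (left) and ZT12 (right). Circles are the probes nearer the 5′ end, squares those nearer the 3′ end, and open symbols probes well above background on 2 arrays. The probes of Hist2h2bb differed by 0.20 and 2.24 at ZT0, those of Hist1h4d and Hist1h4k lie together.

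In RefSeq, 5 members span over 1000 bases, all of them H2B genes: Hist1h2bc (8282), Hist1h2be (37455), Hist1h2bp (14079), Hist1h2bq (3788) and Hist2h2be (2667). Their median difference was 2.40 at ZT0 and -0.92 at ZT12, with ranges of -1.39 to 4.06 and -3.07 to 1.78. The other 8 H2B genes had medians of 1.34 and -0.69 and ranges of -0.47 to 2.24 and -1.23 to 0.57, inside those of the long genes. Span and class cannot be told apart here, and the transcript ends that each probe reads were not analysed here.

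The promoters of these genes carry short motifs known from histone genes. The TATA box motif TATAAA, the CCAAT box motif and the octamer motif ATTTGCAT, known from H2B promoters, were searched on both strands in the 300-base windows of 47 members and of all 32851 promoters in the table. TATAAA was in 57.4% of members and 13.6% of all promoters, CCAAT in 87.2% and 37.4%, and ATTTGCAT in 27.7% and 1.74%. ATTTGCAT was in 7 of 15 H2A and 6 of 11 H2B windows and in 0 of the H1, H3 and H4 windows. Some H2A and H2B windows overlap, as those of Hist1h2aa with Hist1h2ba and of Hist1h2ae with Hist1h2bg. A single match can therefore count in both classes. CCAAT was in every H1, H2A, H2B and H3 window and in 2 of 8 H4 windows.

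The 250 bases upstream of Hist1h2bb (GRCm38.p6, chr13:23746484-23746733, plus strand), which hold all 3 motifs, are printed as an example, with matches on either strand in capitals.

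Hist1h2bb: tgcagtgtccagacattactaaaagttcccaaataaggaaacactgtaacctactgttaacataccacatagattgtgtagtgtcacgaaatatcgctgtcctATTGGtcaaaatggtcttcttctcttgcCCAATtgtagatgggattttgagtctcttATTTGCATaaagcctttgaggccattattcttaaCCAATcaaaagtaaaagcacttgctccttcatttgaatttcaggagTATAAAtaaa

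The factors that make and use histone messages were read from fixed lists. Counts for these lists and those below stand beside the shares of all features. Those shares were 20.5% higher and 31.5% lower at ZT0, and 32.2% higher and 17.9% lower at ZT12. A count near its share does not set a list apart. Of 21 genes of histone pre-mRNA processing, 4 were higher in ALDH-high cells at ZT0 and 2 lower, and 1 was higher and 4 lower at ZT12, with medians of 0.08 and -0.19. Slbp, which binds the stem-loop, had levels of 1.58, 3.56, 2.66 and 1.47, so that it was high on the ZT0 ALDH-high array and differed by 1.98 and -1.19. Casp8ap2 (FLASH), which works in 3′ processing, had -1.43, 0.50, 0.25 and -1.42. The highest of the list at ZT0 and lowest at ZT12 was Zfp473, a U7 snRNP partner, with differences of 2.90 and -2.98. At the other end Snrpf, a core Sm protein, differed by -1.90 and 1.26.

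Of 13 measured genes of histone gene transcription, 6 were higher and 1 lower at ZT0, and 1 was higher and 5 lower at ZT12, with medians of 0.91 and -0.96. Nfya, a subunit of the CCAAT-binding factor, was the highest at ZT0 with differences of 2.33 and -1.25. Casp8ap2 was the lowest at ZT12, at -1.67. E2f1, which drives S phase genes, differed by -1.62 and 1.22, the lowest of the list at ZT0 and the highest at ZT12. Npat, the coactivator of histone genes, had levels of -2.88, -2.91, -1.79 and -2.77, high on the ZT12 ALDH-low array only.

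Of 20 histone chaperones, 3 were higher and 6 lower at ZT0, and 0 higher and 2 lower at ZT12, with medians of -0.20 and -0.16. Asf1b, a carrier of new H3 and H4, differed by -0.38 and 0.61, and Chaf1a, of the replication-coupled assembly factor, by -1.11 and 0.60. Ubn1 was the highest at ZT0 (1.82) and Atrx the lowest at ZT12 (-1.56), while Npm1 was the lowest at ZT0 (-2.03) and the highest at ZT12 (0.73).

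Many replacement histones are made throughout the cell cycle from polyadenylated messages. The 13 genes measured had medians of 0.10 and 0.05, with 3 higher and 2 lower at ZT0 and 2 higher and 0 lower at ZT12. The H3.3 genes H3f3a and H3f3b had levels of 5.97, 7.66, 7.22 and 6.27 and of 6.80, 8.24, 8.13 and 7.25, high on the same arrays as Hist1h3d. H2afz and H2afx, the H2A variants of promoters and of DNA damage, stayed within 2-fold, at 0.47 and -0.27 and at 0.09 and 0.44. Cenpa, the centromeric H3, differed by -0.20 and 0.04. H1f0, the linker histone of resting cells, differed by -2.55 and -0.50, and H2afy3 by -2.64 and 3.56, the lowest at ZT0 and the highest at ZT12. H3f3a was the highest at ZT0 (1.69) and the lowest at ZT12 (-0.95).

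Genes of S phase had medians of the opposite sign to H2B. Of 29, 1 was higher and 17 lower in ALDH-high cells at ZT0, and 8 were higher and 1 lower at ZT12, with medians of -1.24 and 0.74. Pcna, the polymerase clamp, differed by 0.45 and -0.27. Gins2, of the replicative helicase, was the lowest at ZT0 with -2.31, and Rpa2, of the single-strand binding complex, the highest at ZT12 with 3.66. Slbp, also on this list, was its highest gene at ZT0 and its lowest at ZT12. Of 20 genes of G2 and mitosis, 0 were higher and 3 lower at ZT0 and 0 passed 2-fold at ZT12, with medians of -0.75 and 0.27. Mki67, a marker of cycling cells, differed by -0.10 and -0.18. Aurka was the highest at ZT0 (0.12) and the lowest at ZT12 (-0.76), Bub1 the lowest at ZT0 (-1.20) and Kif11 the highest at ZT12 (0.88).

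**Figure D4:**
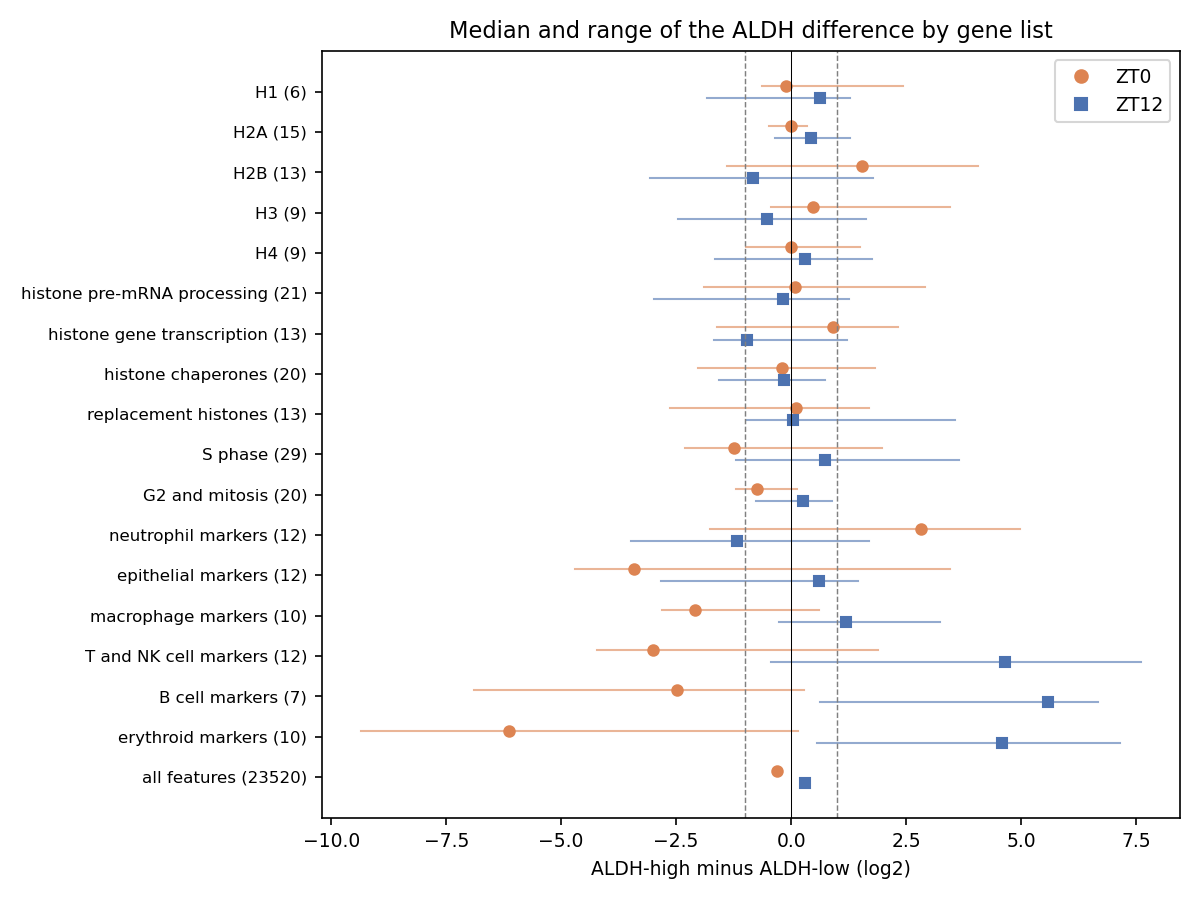
Rows are the 5 histone classes, the other gene lists and all features, with the number measured, and the x axis is the ALDH-high minus ALDH-low difference (log2). Points are medians at ZT0 (circles) and ZT12 (squares), and lines run from the lowest to the highest gene (not drawn for all features). H2B medians are 1.54 and -0.83 where S phase medians are -1.24 and 0.74.

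Markers of other cell types also differed between the arrays. Neutrophil markers (12 of 12 measured) had medians of 2.83 at ZT0 and -1.18 at ZT12, the direction of H2B. They were split, with 7 higher and 1 lower at ZT0 and 2 higher and 6 lower at ZT12. T and NK cell markers (12 of 12) had -3.01 and 4.65, B cell markers (7 of 8) -2.48 and 5.59, erythroid markers (10 of 13) -6.14 and 4.58, and macrophage markers (10 of 10) -2.09 and 1.19. Epithelial markers, which define the labelled carcinoma cells, were all measured (12 of 12) and had medians of -3.41 and 0.61. Fibroblast and endothelial markers (9 of 10) had -0.43 and 0.24.

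The summed level of a list is given in multiples of the array's 75th percentile. Neutrophil markers summed to 2328, 3545, 2108 and 3130 on the 4 arrays, so at ZT12 the sum and the median differ in sign. Epithelial markers summed to 199, 21.2, 94.1 and 96.7, macrophage markers to 219, 156, 152 and 271, and T and NK cell markers to 42.8, 20.1, 7.01 and 55.9. B cell markers summed to 27.7, 5.19, 1.59 and 36.4 and erythroid markers to 867, 3.81, 4.57 and 292. The markers that did not pass the filter included Klf1 and Ahsp (erythroid), Blk (B cell) and Cdh5 (endothelial). The part of cell makeup in the histone differences was not tested.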

How the data were processed

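RNA of 4 sorted samples was labelled with Cy3 and hybridised to 1-colour Agilent arrays. The deposited intensity values are the scanner's processed signals per spot, background-subtracted by Agilent Feature Extraction (version 10.7.1.1 per the file headers, 9.5.1.1 per the submitters' processing notes), with probes placed on mm9. The authors also deposited a table of the same arrays on a linear signal scale; its columns share a median of 28.3, its rank correlation with the scanner values is 1.0. Its scaling was not stated; its values differed from quantile-scaled scanner values by a median of 0.0022 to 0.0034 log2 per array.

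Control and outlier spots were left out, spots of a probe averaged, and log2 values taken minus each array's 75th percentile over non-control probes. Of 56605 probes, 34574 passed the filter (flagged well above background on 2 or more of 4 arrays), and the probe with the highest mean level stood for its gene (37074 names on the array, 23520 kept). The choice of probe was made anew under each alternative setting. A fold against a spot not well above background is a bound ("at least"), set by the dimmest probe that the array still flagged well above background.

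With 1 array a group, contrasts are differences of 2 arrays with no test. An additive fit of ALDH and time over all features used limma 3.58.1 (R 4.3.3; Benjamini-Hochberg adjustment, threshold 0.05) and was tested on simulated data; figures and counts used Python 3.11.15. Array number limits the precision.

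All members are accounted for. Values on all arrays are given, in each class, for the brightest probe, for the 2 genes highest and 2 lowest by mean ALDH difference among those detected on every array, for testis variants, for genes outside chromosome 13 and for holders of the largest or smallest difference; other members named with values were chosen after their values were seen. For the other lists, 13 genes fixed by name and each list's extremes are given. The members, lists and rules were chosen with earlier results of these data known. Current symbols, gene spans and promoters come from RefSeq (GRCm38.p6); all 52 members matched a RefSeq gene and 47 a promoter. Alternatives were the scaling, background correction, source table, filter, probe rule, outlier spots, array left out and position as a block.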

Additional observations from a re-analysis of the deposited data

Results flagged for a closer look

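The ALDH difference of 11 histone genes was at least 2-fold in opposite directions at the 2 times, on 1 array a group; for each of them the difference between the times was not tested. In 10 genes the difference was above 0 at ZT0 and below 0 at ZT12, a pattern shown by 15.0% of all features, and in 1 the reverse, shown by 20.4%. With both patterns pooled, the 11 of 52 histone genes were no larger a share than that of all features. The first pattern alone, in 10 of 52, was slightly above its share of all features, and the reverse, in 1 of 52, was well below it. Among H2B genes the log2 differences at ZT0 and ZT12 were 1.54 and -1.10 in Hist1h2bb, 2.62 and -2.02 in Hist1h2bc, 1.62 and -1.23 in Hist1h2bm, 4.06 and -3.07 in Hist1h2bq and 2.24 and -1.15 in Hist2h2bb. Among H3 genes they were 1.52 and -1.15 in Hist1h3d, 3.45 and -2.46 in Hist2h3c1 and 2.12 and -1.64 in Hist2h3c2. They were 2.44 and -1.83 in the H1 gene Hist1h1c and 1.495 and -1.65 in the H4 gene Hist1h4i. In Hist2h2be the order was the reverse, at -1.39 and 1.78. The 2 arrays high in the 10 genes share slide position 1_2, and position cannot be told apart from the ALDH by time pattern.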

How the results depend on the processing

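No paired analysis was possible because each group has 1 array and the replicate numbers pair nothing. Scaling mattered most. With median scaling, 0 members were lower at ZT0 (1 in the main setting), 0 higher and 21 lower at ZT12 (7 and 11), 0 lower over time in ALDH-low cells (5) and 0 higher in ALDH-high cells (3); the medians became -1.70 for H2B and -1.39 for H3 at ZT12, and 1.51 and -1.02 for H3 over time in ALDH-low and ALDH-high cells. With quantile scaling, 3 members were lower at ZT0, the H3 median at ZT12 was -1.01, and the H2B medians over time were 0.78 and -0.97. With normexp and quantile, 3 members were lower at ZT0, 4 higher and 7 lower at ZT12 and 9 higher over time in ALDH-low cells; the H2B median was 0.62 at ZT0 and 0.60 and -0.60 over time. There the Hist2h2bb values reversed, to -0.24 at ZT0, 0.31 at ZT12 and -0.60 over time in ALDH-low cells. The brightest probe of a gene was chosen anew there, so another probe of Hist2h2bb may be the one read. The cause was not tested. In the authors' table, 3 members were lower at ZT0 and 8 over time in ALDH-low cells; the H3 median at ZT12 was -1.01 and the H2B medians over time 0.76 and -0.92. The median of all features itself shifted with the scaling, from -0.32 to 0.17 at ZT0 and from 0.30 to -0.57 at ZT12. Requiring all 4 arrays above background, no filter, the mean of a gene's probes and keeping outlier spots left all class medians on their side of 2-fold and the counts within 1.5 times. With each array left out in turn, a fit held 1 term only, ALDH or time, and left 1 array in a group. The calls of those fits are therefore not given. With position as a block, the fit held terms for ALDH and position but none for time. That fit called 0 features for ALDH, with 1915 at an unadjusted p under 0.05 (limma). Dim probes give bounds only.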
